A study of Homo sapiens with 12 samples.

Results

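The TGFβ1 response of S134A-GR cells was measured in 6 of the 12 RNA-seq libraries of the series, namely the 3 labelled S134A-GR TGF-beta and the 3 labelled S134A-GR Veh, across all genes. The cells are MDA-MB-231, an established human triple-negative breast cancer (TNBC) line that expresses the glucocorticoid receptor (GR, gene NR3C1). S134A-GR denotes clone #1, grown from a single cell after CRISPR knock-in had changed residue Ser134 of the receptor to alanine on both alleles. The other 6 libraries came from wt-GR cells, a clone recovered from the same CRISPR procedure that had kept the unedited receptor, again 3 with vehicle and 3 with TGFβ1. All cells were starved for 18 h in medium with 1% DCC (charcoal-stripped serum) and then treated for 6 h, with vehicle or with TGFβ1 at 10 ng/mL. Each genotype is thus represented by 1 clone, so that effects of the edited residue and of the clone cannot be told apart. The labels do not say whether replicates were separate cultures, and the p-values measure the spread between these samples. In bulk RNA, fewer cells of a type and less RNA per cell cannot be told apart either.

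TGFβ1 is a secreted dimer held latent in the matrix. Once released, it joins type II and type I receptor kinases at the cell surface, which phosphorylate SMAD2 and SMAD3, and these enter the nucleus with SMAD4 to act with partners such as AP-1. The pathway also runs through p38 and other MAPKs and is known in breast cancer for inducing matrix, cytoskeletal and secreted proteins, for slowing the cell cycle and for epithelial-mesenchymal transition (EMT). GR is a ligand-activated transcription factor, and Ser134 is a site phosphorylated by p38 MAPK. Here the cells received no glucocorticoid, and the comparison asks which genes TGFβ1 moved when Ser134 was absent.

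Values are normalized counts (reads divided by a size factor per library). The S134A-GR libraries held 85.2 to 125.3 reads in units of 1e6, and 3 reads, taken as the floor of detection for counting error only, corresponded to 2.146 to 3.041 normalized counts. These totals exceed the average per sample that the paper states. Whether the mates of a pair were counted singly is not given, so 3 reads may stand for fewer fragments. The edited gene did not respond detectably. NR3C1 read 8516, 8971 and 8959 normalized counts under vehicle and 9398, 8336 and 8341 under TGFβ1, so the groups overlapped (adjusted p = 0.877), and a count does not show which residue the transcript encodes. Markers of the line were present, VIM at 425010 to 533198, CD44 at 41033 to 58481 and EGFR at 14798 to 21775 normalized counts. Among markers of other cells, the leukocyte genes PTPRC and CD14 lay between 0 and 9.8, LUM was 0 in the 6 libraries, and CDH1 and ESR1 were at or under 12.5. DCN and CDH5 lay between 0 and 37.1. The other 9 markers of luminal, leukocyte, endothelial and stromal cells were expressed, CD68 at 39123 to 42856, ERBB2 at 8795 to 10589, and EPCAM, KRT19, GATA3, FOXA1, PECAM1, VWF and PDGFRB between 161 and 2277.

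Across 18579 tested genes, 1860 rose and 1615 fell at an FDR under 0.05 (limma on log2 of the value plus 1, Benjamini-Hochberg adjustment), which is 10% and 8.69% of the genes. Most changes were small. The median log2 fold change (TGFβ1 over vehicle) was 0.24 for the genes that rose, −0.36 for those that fell and −0.01 for all genes. Counting only changes of 1.5 or more on the log2 scale, 81 genes rose (0.436%) and 74 fell (0.398%). Low expression was common among these large changes. Only 20 of the 81 and 7 of the 74 had a mean log2 CPM of at least 1 over the 6 libraries. Of all 1860 genes that rose, 17 had at most 3 reads in every vehicle library. Of all 1615 that fell, 22 had at most 3 reads in every TGFβ1 library. The vehicle and TGFβ1 values did not overlap in 35.6% of all tested genes and in 99.4% of the genes called in either direction. Of the 164 called genes named by rule, 23 had calls that were lost in at least 1 alternative fit, among them ACVRL1, BCL3, BNIP3L, COL1A2, ESRP1, GATA3, KRT17, LEFTY2, LMOD1, LSS, MAF, MAPK13, MX2, MYB, NRARP, PDGFRB, PHGDH, RAPGEF5, SFRP1, SLIT3, TNFSF15 and VCAN. Of 15456 tested protein-coding genes 11.6% rose and 9.92% fell, and of 1476 tested lncRNAs 2.57% and 2.98%.

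The genes with the largest rises include genes of secreted hormones, matrix and vessel factors, and regulators of TGFβ signaling. UCN2 (chr3:48561718-48563781 in GRCh38), the stress peptide urocortin 2, read 1897, 1887 and 1729 normalized counts under vehicle and 9913, 11418 and 9422 under TGFβ1, or 2.48 ± 0.0636 on the log2 scale (fold change and standard error, adjusted p = 6.89e-12). ANGPTL4, an inhibitor of lipoprotein lipase, went from 1186, 1268 and 1122 to 5535, 6408 and 5557 (log2 fold change 2.29). The ratios were 5.56-fold and 4.89-fold, and every treated library lay above every vehicle library, as the rule that chose these genes requires. Of the 75-base stretches of UCN2 transcripts, 15.7% also occur in PFKFB4, a gene that rose as well, so reads from these could belong to either. PMEPA1 (chr20:57648396-57711472), a membrane protein that sequesters receptor-activated SMADs, went from 4370, 4528 and 4204 to 20685, 20344 and 18576 (log2 fold change 2.18, standard error 0.0535). NKILA, a lncRNA on the opposite strand, rose with it (131.0, 103.4 and 114.0 to 517.4, 465.7 and 502.2, log2 fold change 2.09). Exons of PMEPA1 cover 13.1% of the NKILA exon bases and the strand setting of the counting is not given, so reads from the shared stretch could belong to either gene.

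EDN1, the vasoconstrictor endothelin-1, read 1338, 1274 and 1372 normalized counts under vehicle and 4839, 5385 and 5525 under TGFβ1 (log2 fold change 1.98, adjusted p = 7.18e-11). PDGFB, a mitogen of mesenchymal cells, rose from 300.7, 400.4 and 350.1 to 1412, 1553 and 1504 (2.09). FSTL3, which binds and blocks activins, rose from 3122, 2913 and 2888 to 8780, 9533 and 9444 (1.64). At the cell surface, PODXL, an anti-adhesive sialomucin, rose from 29496, 29863 and 30343 to 89618, 90131 and 87978 (log2 fold change 1.58), AMIGO2, an adhesion protein, from 13855, 13824 and 14060 to 40265, 41056 and 40461 (1.54), and GPR132, a receptor of oxidised lipids, from 146.1, 109.5 and 157.7 to 428, 540.7 and 507.2 (1.84). CGB8, one of the genes for the β subunit of chorionic gonadotropin, had the largest log2 fold change of this group (2.66), from 125.4, 84.1 and 103.3 to 651.5, 700.6 and 619.5. Of its 75-base stretches, 75.4% occur in other genes, mainly CGB5 and CGB3, so which copy gave the reads is uncertain.

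**Figure D1:**
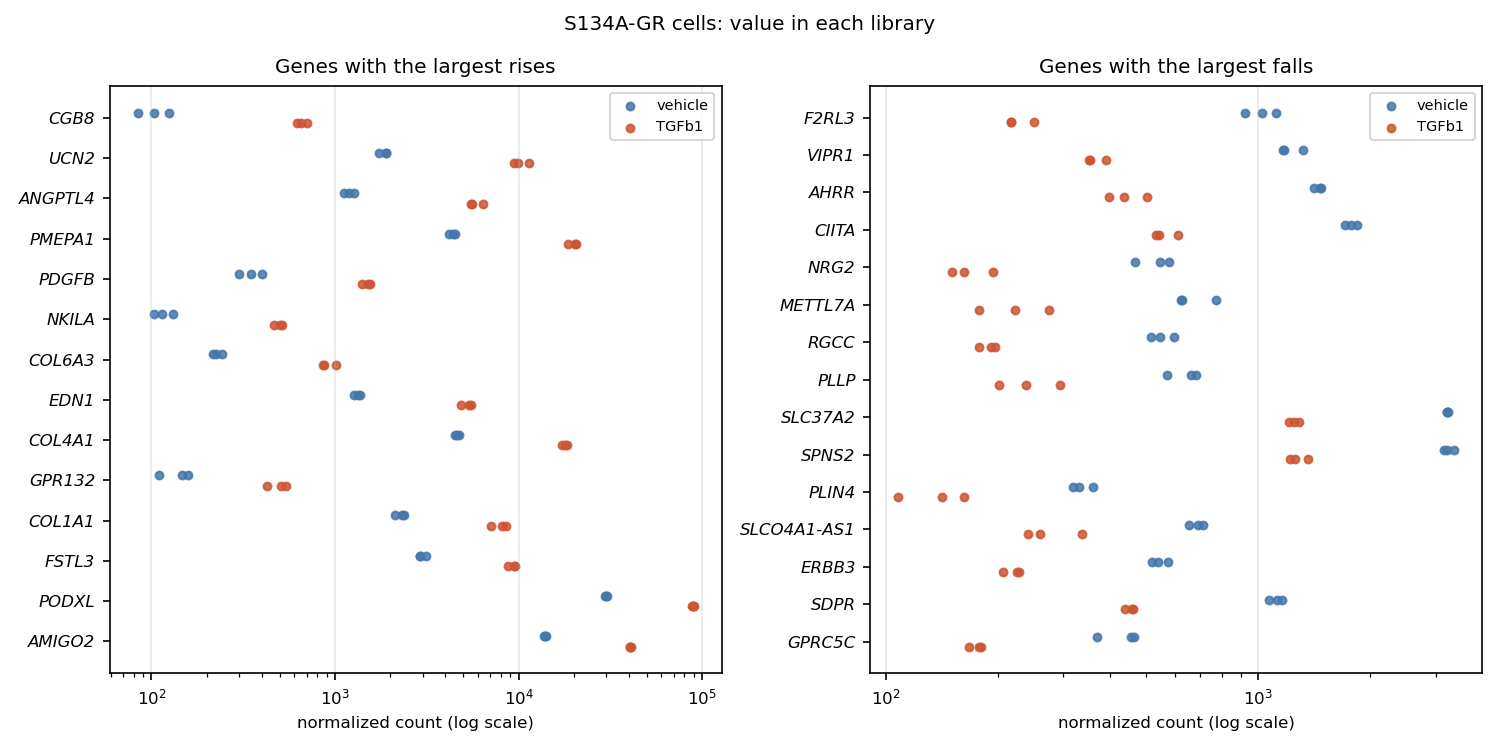
Normalized count (log axis) of 14 of the 15 genes with the largest rises and of the 15 with the largest falls in S134A-GR cells, 1 point per library, vehicle in blue and TGFβ1 in orange. In all 29 genes the treated points lie apart from the vehicle points, as the rule that chose the genes requires.

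Some of these genes carry an AP-1 motif close to their start. The letters TGANTCA (either strand) occur in the 250 bases before the start of 5 of the 58 genes with a large rise that have an entry in the RefSeq promoter table (8.62%), against 4.7% of 13704 tested genes, 4.75% of the 1538 that rose and 5.36% of the 1212 that fell with an entry. Among large falls it was 3 of 50 (6%). The SMAD box CAGACA, searched likewise, occurs in 17.2% of the large rises and 18% of the large falls with an entry. Its share was 9.88% of all rises, 9.32% of all falls and 10.8% of all tested genes with an entry. The SMAD palindrome GTCTAGAC occurs in 0 of the large rises, 0 of the large falls and 22 of the 13704 tested genes. A match is a description of the letters only. The stretches of UCN2 (chr3:48563852-48563908, minus strand) and AMIGO2 (chr12:47080151-47080201, minus strand) are shown because both genes are among the largest rises, from RefSeq on GRCh38.p14, with the motif in capitals.
UCN2: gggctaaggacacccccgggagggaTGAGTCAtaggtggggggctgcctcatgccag
AMIGO2: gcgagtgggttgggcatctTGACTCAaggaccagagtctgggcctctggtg

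The 3 largest falls by the naming rule were those of F2RL3, VIPR1 and AHRR. F2RL3 (chr19:16888999-16892606), the thrombin receptor PAR4, read 1026, 1120 and 920.3 normalized counts under vehicle and 250.1, 216.7 and 216.7 under TGFβ1, or −2.16 ± 0.0829 on the log2 scale (adjusted p = 3.66e-10). VIPR1 (chr3:42489299-42537568), a receptor of vasoactive intestinal peptide, went from 1321, 1176 and 1170 to 390.9, 352.3 and 354.8 (−1.74, standard error 0.0693). AHRR (chr5:321714-438285), the repressor of the aryl hydrocarbon receptor, went from 1470, 1477 and 1410 to 435.6, 502.2 and 397.7 (−1.71, standard error 0.0868). The 3 genes were 4.47-fold, 3.33-fold and 3.27-fold lower, and 56.7% of the 75-base stretches of AHRR also belong to a readthrough transcript of PDCD6. CIITA, the master regulator of MHC class II genes, fell from 1846, 1712 and 1775 to 532.6, 541.7 and 610.9 (−1.66). RGCC, a regulator of the cell cycle, fell from 546.7, 594 and 515.8 to 196.9, 191.4 and 178.1 (−1.54).

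A neuregulin gene and a neuregulin receptor gene both fell. NRG2, a ligand of ERBB receptors, fell from 544.8, 468.3 and 578.2 normalized counts to 162.6, 150.9 and 193.9 (log2 fold change −1.65, adjusted p = 1.49e-07), and ERBB3, a neuregulin receptor, from 573.1, 519 and 539 to 225.4, 228.8 and 206 (−1.30, adjusted p = 2.86e-05). The neuregulin gene NRG1 was not called (0.08, adjusted p = 0.341). A sphingolipid transporter gene and a lipid droplet gene were also among the largest falls. SPNS2, the exporter of sphingosine 1-phosphate, went from 3220, 3362 and 3158 to 1218, 1255 and 1365 (−1.34), and PLIN4, a coat protein of lipid droplets, from 319.5, 330.5 and 360.8 to 141.7, 162 and 108 (−1.31). The remaining genes of the 15 were METTL7A (−1.59), the myelin-associated PLLP (−1.39), the transporter SLC37A2 (−1.37), the antisense RNA SLCO4A1-AS1 (−1.31), the caveolar protein gene SDPR (−1.30) and the orphan receptor GPRC5C (−1.28). Exons of SLCO4A1 lie over 22.6% of the SLCO4A1-AS1 exon bases, where reads of both cannot be told apart without strand.

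The function of the changed genes was described with lists of genes, each read against the 10% of all genes that rose and the 8.69% that fell. The lists were chosen with earlier results of these data known, so their shares are descriptions only.

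**Figure D2:**
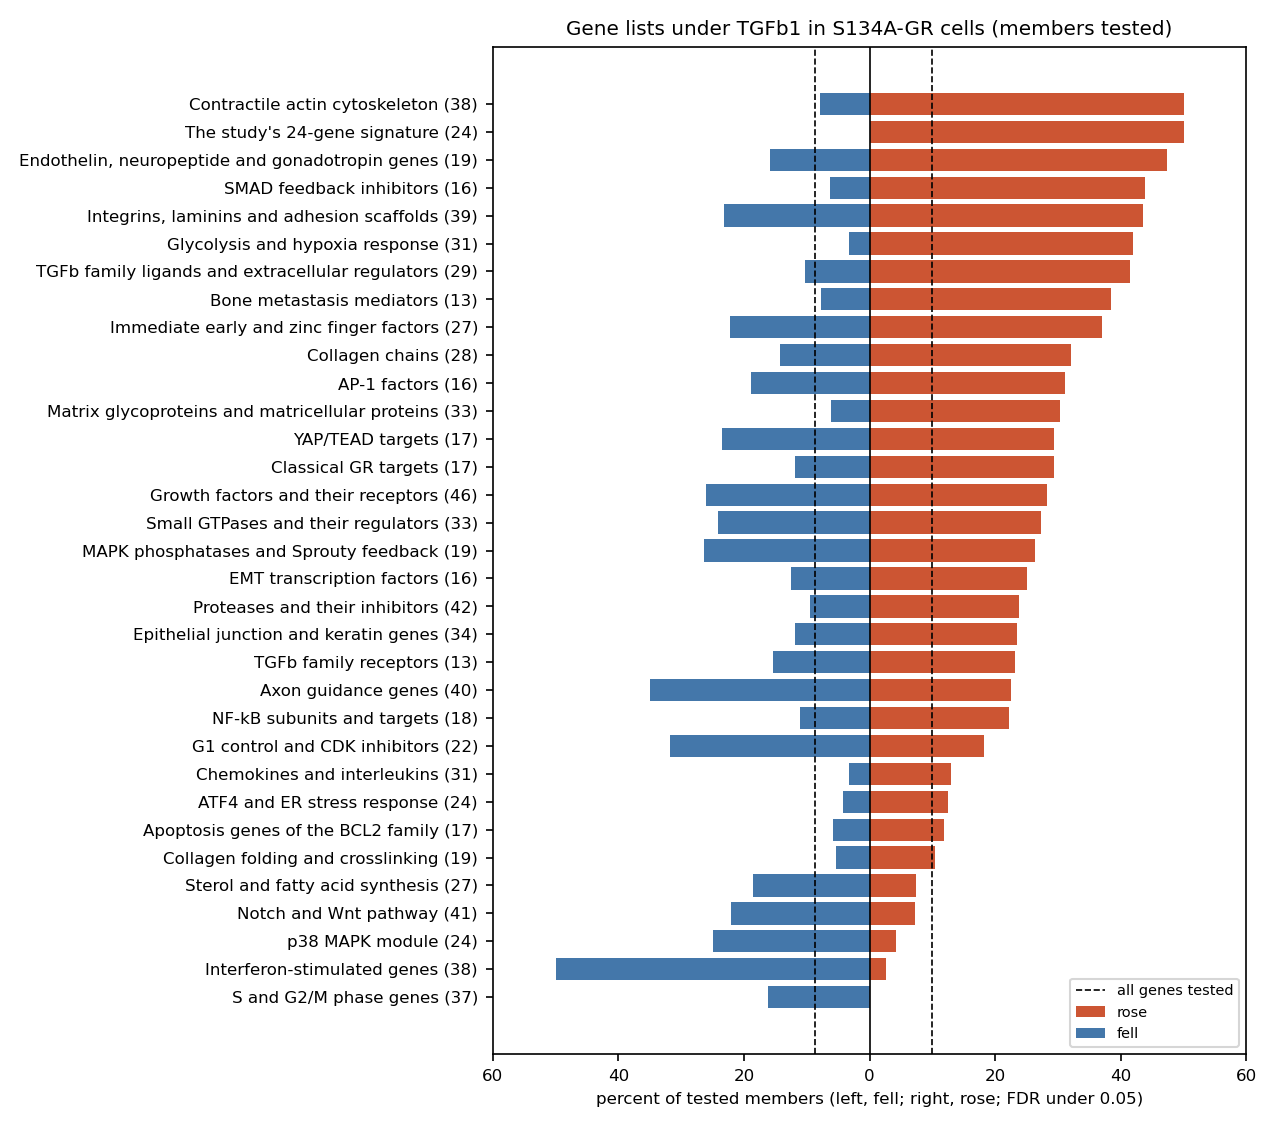
Percent of the tested members of each gene list (number in parentheses) that rose (right) or fell (left) under TGFβ1 in S134A-GR cells at an FDR under 0.05, with dashed lines at the 10% and 8.69% of all genes tested. Contractile actin genes had 50% of members higher and interferon-stimulated genes 50% lower.

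Within the TGFβ pathway itself, many feedback inhibitors and extracellular regulators rose, whereas 1 of 6 signal-transducing SMADs passed the test. Of the 16 SMAD feedback inhibitors, 7 rose and 1 fell (43.8% and 6.25%, median log2 fold change 0.13). SMAD7, the inhibitory SMAD that recruits ubiquitin ligases to the receptor, read 873.8, 833.3 and 829.4 normalized counts under vehicle and 2224, 1939 and 2169 under TGFβ1 (1.32, adjusted p = 6.47e-09). SKIL, which encodes the SMAD corepressor SnoN, went from 1325, 1367 and 1417 to 4047, 3819 and 3856 (1.51), and LDLRAD4, a PMEPA1-related membrane protein, from 91.4, 129.8 and 132.7 to 359.5, 365.5 and 289 (1.52). With PMEPA1, these were the 4 largest changes of the list. Of the 29 tested ligands and extracellular regulators 12 rose and 3 fell (median 0.15). The latent TGFβ-binding proteins LTBP2 (4067, 4088 and 4405 to 11787, 12292 and 12172, log2 fold change 1.53) and LTBP3 (1797, 1814 and 2000 to 3365, 4650 and 3947, 1.08) rose together with FSTL3. TGFB1, the gene of the ligand itself, rose from 11475, 10871 and 10471 to 14879, 15415 and 14697 (0.46, adjusted p = 2.66e-05).

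Among 13 receptors 3 rose and 2 fell. BMPR2, the type II BMP receptor, had a log2 fold change of 0.66 and the co-receptor endoglin (ENG) 0.54, while the co-receptor betaglycan (TGFBR3) fell from 1176, 1266 and 1216 to 808.4, 718.9 and 666.7 (−0.74) and the endothelial-type receptor ACVRL1 fell by 0.67 on the log2 scale. Of the 6 signal-transducing SMADs only SMAD3 passed the test. It read 25703, 24021 and 25455 normalized counts under vehicle and 20167, 20545 and 21692 under TGFβ1 (−0.27, standard error 0.0392, adjusted p = 0.000218). SMAD1, SMAD2, SMAD4, SMAD5 and SMAD9 had log2 fold changes of −0.08, −0.05, 0.04, 0.14 and 0.23, with adjusted p from 0.243 to 0.706. The ID genes, targets of BMP signaling that block basic helix-loop-helix factors, differed among themselves. ID3 fell from 579.7, 519 and 555.9 to 263.4, 205.5 and 291.9 (−1.13, adjusted p = 6.8e-06), whereas ID1 read 4640, 4714 and 4607 under vehicle and 4136, 4337 and 3965 under TGFβ1 (−0.17, adjusted p = 0.0735), ID2 had a log2 fold change of −0.20 (adjusted p = 0.582), and ID4 lay between 0 and 8.11.

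Of the 16 tested EMT transcription factors, 4 rose and 2 fell. SNAI1, the gene of Snail, read 367.6, 363.9 and 367.9 normalized counts under vehicle and 792.2, 778.6 and 676 under TGFβ1 (log2 fold change 1.03, adjusted p = 4.16e-07). ETS1 rose (0.51), whereas FOXQ1 (−0.82) and SOX9 (−0.45), which marks progenitor states, fell. AP-1 genes moved both ways, with 5 of 16 higher and 3 lower. JUNB went from 2670, 2925 and 2683 to 5643, 6233 and 5783 (1.09), and the small MAF gene MAFF (0.43) and MAF (0.53) rose. FOSL1, which encodes FRA-1, fell from 24122, 21545 and 22138 to 14984, 14349 and 16693 (−0.56, adjusted p = 3.07e-06). Among 27 immediate early and zinc finger factors, 10 rose and 6 fell, 37% and 22.2%. BHLHE40, a transcriptional repressor of the clock system, read 12152, 12499 and 12025 under vehicle and 31671, 32529 and 29620 under TGFβ1 (1.35, adjusted p = 2.66e-11). CSRNP1 (0.90) and RUNX3 (0.89) rose too. KLF15, a glucocorticoid-responsive metabolic factor in other tissues, fell from 161.2, 171.3 and 183.5 to 67.5, 71.9 and 53.7 (−1.41).

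Several matrix genes rose, collagen chains among them. Of 28 collagen chains 9 rose and 4 fell, 4 of the rises reaching 1.5 on the log2 scale, while the median of the list was 0.05. COL4A1 (chr13:110148963-110307157), a chain of basement membrane collagen IV, read 4492, 4612 and 4743 normalized counts under vehicle and 18346, 17935 and 17312 under TGFβ1 (log2 fold change 1.95, adjusted p = 1.27e-11). COL6A3, a chain of microfibrillar collagen VI, went from 243.2, 216.9 and 225.4 to 1016, 873.8 and 862 (2.00), and COL1A1, of fibrillar collagen I, from 2331, 2112 and 2370 to 7081, 8526 and 8163 (1.80). COL1A2, the partner chain of COL1A1, rose at far fewer counts, from 16, 13.2 and 8.02 to 44.7, 48.6 and 22.2 (1.53, adjusted p = 0.00558). Enzymes that fold and crosslink collagen moved less, with 2 of 19 higher and 1 lower. The lysyl hydroxylase PLOD2 rose from 11749, 12584 and 12392 to 19722, 19485 and 18971 (0.66) and the prolyl hydroxylase subunit P4HA2 had 0.19, while the collagen galactosyltransferase COLGALT2 fell by 0.68 on the log2 scale.

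Of 33 matrix glycoproteins and matricellular proteins, 10 rose and 2 fell. TGFBI, named for its induction by TGFβ, went from 92877, 92002 and 92326 to 156441, 157117 and 143512 (log2 fold change 0.72), the basement membrane protein TINAGL1 from 5685, 5653 and 5689 to 10299, 10373 and 9658 (0.83) and CTGF from 15871, 16192 and 16601 to 22189, 23889 and 26265 (0.57). VCAN, the proteoglycan versican, rose from 12.3, 26.4 and 22.3 to 38, 37.5 and 37.9 (0.93, adjusted p = 0.0383). Among 42 proteases and inhibitors 10 rose and 4 fell. Urokinase (PLAU), which activates plasminogen, rose from 85103, 87259 and 87604 to 126401, 135565 and 128007 (0.58), and exons of C10orf55 on the opposite strand cover 31% of its exon bases. The metalloprotease ADAM19 rose from 9928, 9751 and 10402 to 24152, 23627 and 21815 (1.21), and ADAMTS6 had 0.77. ADAMTS15, which cleaves versican and aggrecan, fell from 1722, 1636 and 1912 to 971, 920.3 and 894.2 (−0.92, adjusted p = 3.05e-07).

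Many contractile and adhesion genes rose, mostly by small amounts. Of 38 genes of the contractile actin cytoskeleton, 19 rose and 3 fell (50% and 7.89%, median 0.13 beside −0.01 for all genes). TPM1, a tropomyosin, read 15584, 16235 and 15756 normalized counts under vehicle and 28564, 29734 and 27737 under TGFβ1 (log2 fold change 0.85, adjusted p = 8.18e-10). TAGLN, the actin-binding protein SM22, rose from 968.9, 770.4 and 941.7 to 1584, 1702 and 1789 (0.93), and the calponin gene CNN1 from 83.9, 54.7 and 65.9 to 135.1, 136.7 and 113 (0.92). Every treated library of these genes exceeded every vehicle library, as in 99.4% of the genes that rose, and antisense exons lie over 34.1% of TAGLN and 22.7% of TPM1 exon bases. LMOD1, an actin nucleator of muscle, fell from 48.1, 61.8 and 70.4 to 15.2, 37.5 and 27.9 (adjusted p = 0.0296).

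Of 39 integrins, laminins and adhesion scaffolds, 17 rose and 9 fell. NEDD9 (chr6:11183298-11382348), a scaffold of focal adhesion kinase and SRC signaling, had the largest change of the list, from 19.8, 20.3 and 17.8 normalized counts to 314.8, 319.9 and 231.1 (log2 fold change 3.82, or 14.1-fold, adjusted p = 1.67e-10). The β subunits of integrins moved in opposite directions. ITGB3 rose from 404.4, 433.9 and 440.1 to 1063, 1156 and 931.4 (log2 fold change 1.29), and ITGB8, which activates latent TGFβ, fell from 456.2, 473.4 and 475.7 to 237.8, 195.4 and 189.6 (−1.18). Of the 75-base stretches of ITGB3, 32.4% occur in other genes. TNS4, a tensin of focal adhesions, rose from 238.5, 200.7 and 162.1 to 325.3, 401.9 and 415.6 (0.93). Small GTPases and their regulators divided nearly evenly, 9 higher and 8 lower of 33. NET1, an exchange factor for RHOA, rose from 14085, 14997 and 14137 to 21907, 21830 and 20330 (0.57), while RHOV (−1.20), CDC42EP4 (−0.47) and RAPGEF5 (−0.56) fell. Epithelial junction and keratin genes gave 8 higher and 4 lower of 34. KRT7 rose from 27800, 28210 and 27396 to 50359, 56703 and 51617 (0.93) and the tight junction gene CLDN14 from 17, 36.5 and 36.5 to 109.4, 93.1 and 96.6 (1.78). KRT17 went from 6.6, 0 and 8.02 to 32.3, 32.4 and 33.6 (adjusted p = 0.00237). ESRP1, a splicing factor of epithelial cells, went from 27.3, 48.7 and 42.8 to 27.6, 14.2 and 18.6 (adjusted p = 0.0469), and its groups overlapped.

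Axon guidance genes, which also steer migration of tumor cells, fell more often than they rose, 14 against 9 of 40 (35% and 22.5%, median −0.16). Those with the largest changes rose nonetheless. NRP2, a co-receptor of semaphorins and VEGF, read 2336, 2233 and 2282 normalized counts under vehicle and 6721, 5966 and 6060 under TGFβ1 (log2 fold change 1.45, adjusted p = 6.59e-10). The ephrin receptor EPHA4 rose from 786.1, 670.1 and 794.7 to 1743, 1622 and 1567 (1.13) and the netrin receptor UNC5B from 117.8, 139.9 and 116.7 to 293.9, 264.3 and 251.8 (1.11). SLIT3 passed the test (adjusted p = 0.0115) at counts near the floor, 0, 0 and 1.78 against 5.71, 3.04 and 12.2.

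Genes of secreted signals and their receptors moved in both directions. In the list of endothelin, neuropeptide and gonadotropin genes, 9 of 19 rose and 3 fell, 8 of the rises reaching 1.5 on the log2 scale, with a median of 0.75. The list was chosen with earlier results of these data known and holds UCN2, EDN1, CGB8 and VIPR1 from the largest changes. Its counts and median are therefore descriptions only. The gonadotropin genes CGB (14.1, 10.1 and 17.8 to 80.8, 108.3 and 118.7), CGB5 (19.8, 28.4 and 28.5 to 139.8, 203.5 and 177.4) and CGB2 (1.89, 0 and 1.78 to 31.4, 30.4 and 29.3) rose with CGB8, and these near-identical neighbours on chromosome 19 are not independent observations. Of CGB5 and CGB2, 78.6% and 46.9% of the 75-base stretches occur in other genes. Growth factors and their receptors gave 13 higher and 12 lower of 46. EGFR rose from 15227, 14798 and 16111 to 21775, 18993 and 21039 (log2 fold change 0.42, adjusted p = 0.00677) while ERBB2 (−0.20) and ERBB3 fell, and IGFBP3, a carrier of insulin-like growth factors, rose from 5701, 5876 and 5450 to 8693, 8172 and 9001 (0.60).

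Chemokines and interleukins stayed near the background, with 4 of 31 higher and 1 lower. IL11, an osteoclast-activating cytokine, read 2928, 3083 and 3050 under vehicle and 5544, 6141 and 6150 under TGFβ1 (log2 fold change 0.98, adjusted p = 4.25e-08). CCL20 rose from 33, 23.3 and 31.2 to 60.9, 62.8 and 68 (1.12) and TNFSF15 from 109.3, 106.4 and 102.5 to 177.8, 217.7 and 251.8 (1.00). CSF1, the macrophage growth factor, fell from 4635, 4518 and 4682 to 2177, 2261 and 2394 (−1.02). Of 13 tested mediators of bone metastasis 5 rose and 1 fell. With IL11 and CTGF, the Notch ligand JAG1 rose from 3653, 3715 and 3890 to 5243, 5079 and 5226 (0.47), and SPHK1, which makes sphingosine 1-phosphate, rose from 4129, 3874 and 3720 to 8928, 9570 and 9674 (1.26, adjusted p = 8.18e-10).

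Notch and Wnt genes fell more often than they rose, 9 against 3 of 41 (22% and 7.32%). WNT7B, a secreted Wnt, went from 4004, 4078 and 4054 normalized counts to 2114, 1977 and 1894 (log2 fold change −1.02), the Notch ligand JAG2 from 937.8, 983.3 and 982.6 to 558.3, 700.6 and 651 (−0.61) and NRARP, a Notch feedback gene, from 28.3, 32.4 and 36.5 to 10.5, 10.1 and 25.8 (−1.14). SFRP1 also fell, from 3.77, 6.08 and 5.35 to 0, 0 and 1.43, at or near the floor. YAP/TEAD targets moved both ways, 5 higher and 4 lower of 17, including ANKRD1 (0.35) and AJUBA (−0.35). MAPK phosphatases and Sprouty genes gave 5 higher and 5 lower of 19. SPRY1, an inhibitor of RAS signaling, fell from 1216, 1177 and 1229 to 762.8, 655.1 and 614.5 (−0.84), DUSP4 by 0.48 and DUSP5 by 0.36 on the log2 scale, whereas DUSP10, a phosphatase of p38 and JNK, rose by 0.51.

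In the p38 MAPK module, 6 of 24 genes fell and 1 rose (25% and 4.17%, median −0.06). The list holds the p38 kinases, kinases upstream and downstream of them, and adaptor or scaffold proteins. MAP2K6, a kinase that activates p38, read 157.4, 140.9 and 151.4 normalized counts under vehicle and 55.2, 40.5 and 34.3 under TGFβ1 (log2 fold change −1.79, standard error 0.176, adjusted p = 5.01e-06). MAP2K3, the other dedicated activator, went from 16809, 15327 and 16153 to 10845, 11313 and 12400 (−0.48), and MAP3K5 (ASK1) from 957.6, 993.4 and 1063 to 799.8, 791.7 and 718.2 (−0.38). MAPK13, which encodes p38δ, rose from 5819, 5631 and 5846 to 6213, 7485 and 7206 (0.27). These 4 were the called members with the largest changes. The other falls were those of MKNK2 (−0.23) and MAPKAPK3 (−0.16), kinases downstream of p38, and of the adaptor TAB1 (−0.15). MAP2K4 (−0.04), MAP3K7 (0.08), MAP3K4 (0.12), MAP3K6 (−0.14), MAP3K3 (−0.08) and TRAF6 (0.10), which also act upstream of p38, were not called.

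Of 17 tested classical GR targets, 5 rose and 2 fell (29.4% and 11.8%, median log2 fold change −0.03), in cells given no glucocorticoid. The other 10 were not called, among them FKBP5 (−0.04), TSC22D3 (−0.04), PER1 (−0.12), DUSP1 (0.06), KLF9 (−0.21) and GLUL (0.02). SGK1, a kinase of ion transport and survival, rose from 931.2, 968.1 and 930.1 to 2141, 1811 and 1989 (log2 fold change 1.07, adjusted p = 6.26e-08), and ANGPTL4 is a member of the list as well. SDPR was the member with the largest fall. Among 18 NF-κB subunits and targets 4 rose and 2 fell. RELA (0.22) and RELB (0.49) rose while TNFAIP2 (−0.49) and BCL3 (−0.34) fell.

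Many interferon-stimulated genes fell, none by a large amount. Of 38 members 19 fell and 1 rose, 50% against the 8.69% of all genes that fell, with a median log2 fold change of −0.18. IFIT2 (chr10:89302046-89309271), an antiviral RNA-binding protein, read 1862, 1806 and 1827 normalized counts under vehicle and 1079, 1113 and 994.3 under TGFβ1 (−0.79, standard error 0.0681, adjusted p = 1.44e-06). IFIT1 fell from 1634, 1783 and 1633 to 1108, 978 and 970 (−0.73), the antiviral GTPase gene MX2 from 167.8, 197.7 and 158.6 to 88.4, 126.6 and 118 (−0.66), and OAS2, an activator of RNase L, from 1498, 1533 and 1541 to 1070, 1009 and 948.5 (−0.60). All treated libraries of these 4 genes lay below all vehicle libraries, as in 99.4% of the genes that fell.

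**Figure D3:**
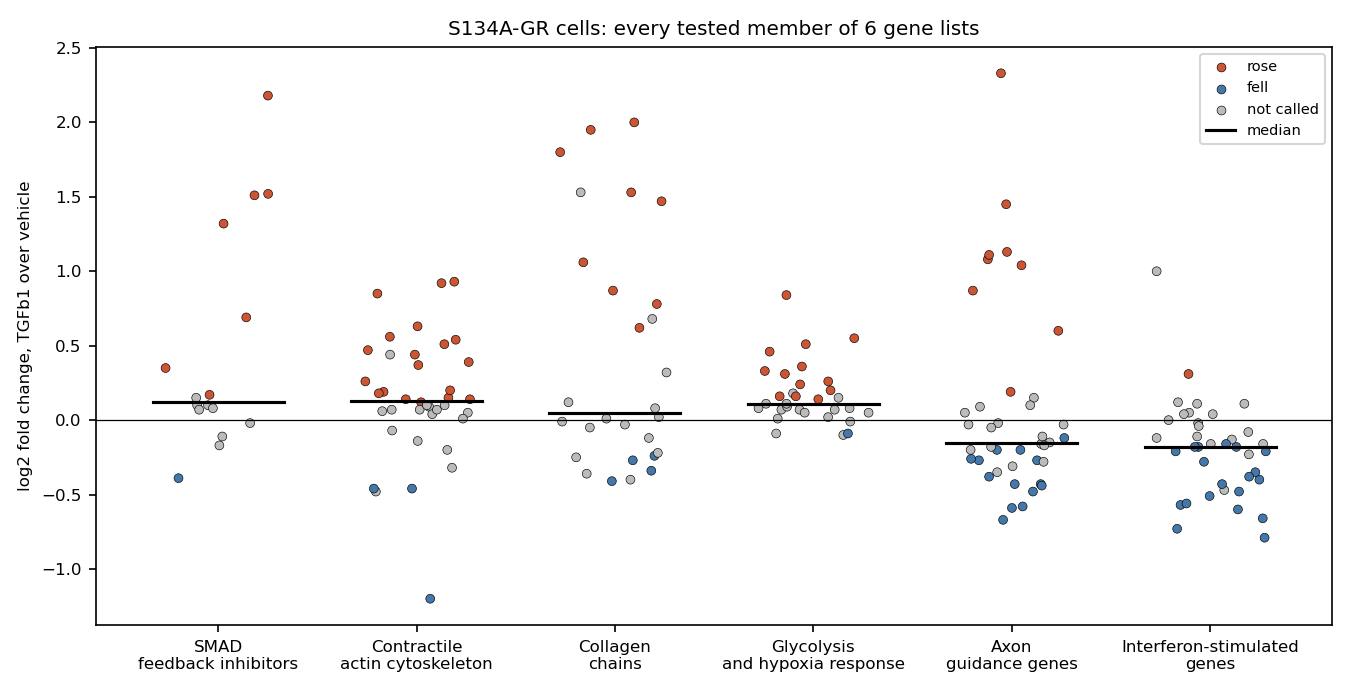
Log2 fold change (TGFβ1 over vehicle) of every tested member of 6 gene lists in S134A-GR cells, coloured by call, with a black line at the list median. SMAD feedback inhibitors hold 4 changes of 1.32 or more, while actin genes (median 0.13) and interferon-stimulated genes (median −0.18) show many small changes.

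Interferon acts on such genes through the ISRE, here searched as its core (TTTC, then NN for any bases, then TTTC) on either strand of the 250 bases before the start. The core occurs in 6 of the 14 promoters of interferon-stimulated genes that fell and are in the RefSeq table (42.9%) and in 9 of the 16 of those that did not fall (56.2%), against 2.51% of 13704 promoters, which is no higher a share among the members that fell. Among the 6 are IFIT1, IFIT3 and IFIT5, shown with the matches in capitals. IFIT2 is not among the 6, because its 250 bases hold no match or it has no entry. The GRCh38.p14 positions on the plus strand are chr10:89392482-89392554 for IFIT1, chr10:89327816-89327909 for IFIT3 and chr10:89414498-89414567 for IFIT5.
IFIT1: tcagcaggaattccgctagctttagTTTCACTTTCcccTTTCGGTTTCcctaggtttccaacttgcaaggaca
IFIT3: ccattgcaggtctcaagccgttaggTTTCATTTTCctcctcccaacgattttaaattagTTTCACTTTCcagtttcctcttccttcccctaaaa
IFIT5: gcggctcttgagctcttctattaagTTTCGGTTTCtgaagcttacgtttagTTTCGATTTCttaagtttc

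Among growth control genes, both activators and inhibitors of the cycle moved in both directions. Of 22 tested regulators of G1, 7 fell and 4 rose (31.8% and 18.2%). CDKN1A, the CDK inhibitor p21, rose from 5797, 5886 and 5501 normalized counts to 8807, 8825 and 8892 (log2 fold change 0.63, adjusted p = 1.47e-08), whereas the CDK inhibitor CDKN2C (−0.48), the activator E2F2 (1199, 1075 and 1237 to 712.3, 691.5 and 899.9, −0.61) and MYB (−0.62) fell. The other rises were those of the activators CDK6 (0.30), MYC (0.24) and E2F3 (0.22), and the other falls those of the inhibitor CDKN1B (−0.25) and of E2F1 (−0.22), CDK2 (−0.13) and CCND3 (−0.11). None of the 37 S and G2/M phase genes rose and 6 fell (16.2%), all by small amounts. The replication licensing factor CDT1 had −0.29, the mitotic kinesin KIF20A −0.24, ORC1 −0.24 and MCM2 −0.15. Of 17 BCL2 family genes 2 rose and 1 fell (11.8% and 5.88%, median −0.02), near the shares of all genes. MCL1 (0.30) and BNIP3L (0.26) rose, and BCL2L11, which encodes BIM, fell from 1115, 1064 and 1219 to 821.7, 677.3 and 805.5 (−0.56, adjusted p = 0.000267).

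Genes of glucose uptake and use were among those that rose. Of 31 genes of glycolysis and the hypoxia response, 13 rose and 1 fell (41.9% and 3.23%, median 0.11). SLC2A1, the glucose transporter GLUT1, read 35418, 35977 and 34966 normalized counts under vehicle and 65039, 64331 and 60795 under TGFβ1 (log2 fold change 0.84, adjusted p = 4.11e-10). HK1 rose from 36284, 36350 and 37429 to 51859, 50607 and 48698 (0.46), and PFKFB3 (0.51) and PFKFB4 (0.55), which raise the activator of phosphofructokinase, rose with it. Sterol and fatty acid genes gave 2 higher and 5 lower of 27, among them ACLY (0.35), LSS (−0.36) and ELOVL6 (−0.34). In the ATF4 and ER stress list, 3 of 24 rose, the amino acid transporter genes SLC7A5 (0.28) and SLC3A2 (0.32) and VLDLR (0.32), and PHGDH (−0.13) fell.

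Most of the S134A-GR response was also called in wt-GR cells, where 2086 genes rose (11.2%) and 1824 fell (9.82%) and which share no library with it. Both tests used the same estimate of each gene's spread, so the calls in the lines are not independent. Of the 1860 genes that rose in S134A-GR cells, 1288 (69.2%) rose in wt-GR cells, and of the 1615 that fell, 1046 (64.8%) fell there. The sign was the same for 97% and 95.9%. Of the 81 large rises 63 were called in wt-GR cells, and their median log2 fold change over all 81 was 2.09 in S134A-GR and 1.96 in wt-GR cells. Of the 74 large falls 25 were called, with medians of −1.97 and −0.86, and the S134A-GR medians come from values that chose these genes. Conversely, the 137 genes that rose by 1.5 or more in wt-GR cells had medians of 2.01 there and 1.29 with S134A-GR, and 57 of them passed the same cutoff in both lines. For the 94 that fell by 1.5 or more in wt-GR cells the medians were −2.04 and −0.74, and 16 passed in both. Here the wt-GR medians come from the values that chose the genes.

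The difference of the 2 responses (S134A-GR minus wt-GR) was tested directly. It was called for 77 genes (0.414%), of which 52 had a called response in S134A-GR cells. Of these 52, 19 had the larger change in S134A-GR cells and 9 had opposite signs. This number depended on single libraries, lying between 15 without replicate 1 of TGFβ1-treated wt-GR cells and 105 without replicate 3 of vehicle-treated wt-GR cells. Larger responses in S134A-GR cells included TUBA4A, an α-tubulin, which rose from 8801, 8101 and 8567 normalized counts to 19869, 19309 and 19578 (log2 fold change 1.21 against 0.81 in wt-GR cells, difference 0.40, adjusted p = 0.00717). Antisense exons lie over 20% of TUBA4A exon bases. GRK5, a kinase of G protein-coupled receptors, fell from 5687, 6025 and 5726 to 3213, 3255 and 3041 (−0.87 against −0.28, difference −0.59, adjusted p = 0.00717). F2RL3 (−2.16 against −1.5), AHRR (−1.71 against −1.04) and WNT7B (−1.02 against −0.65) fell further as well. RND3, an atypical small GTPase that opposes RHOA, had opposite signs, 0.19 in S134A-GR and −0.24 in wt-GR cells (difference 0.43, adjusted p = 0.00717).

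**Figure D4:**
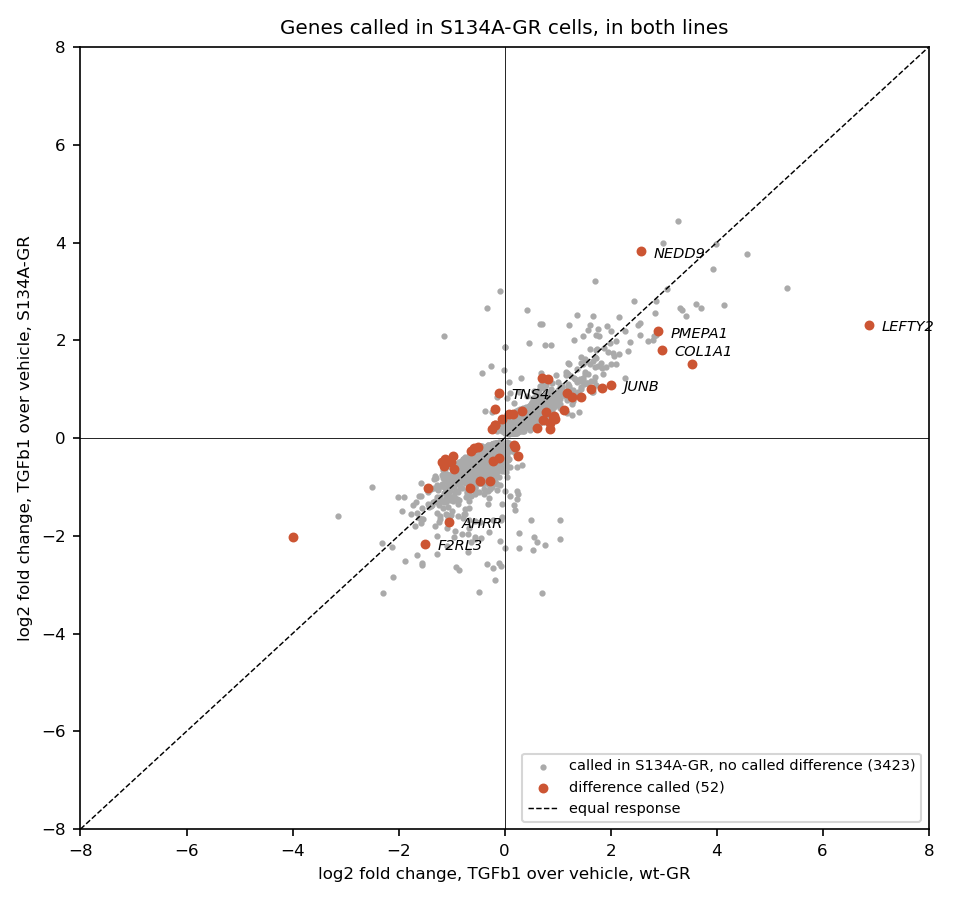
Log2 fold change (TGFβ1 over vehicle) in wt-GR cells (x) and S134A-GR cells (y) of the 3475 genes called in S134A-GR cells, with the 52 whose response differed between the lines in orange and a dashed line of equal response. NEDD9 (3.82 against 2.58) lies above the line, and PMEPA1, COL1A1, JUNB and LEFTY2 lie below it.

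Other genes had smaller responses than in wt-GR cells. The rise of PMEPA1 was 2.18 against 2.90 in wt-GR cells (difference −0.72, adjusted p = 0.000909), that of JUNB 1.09 against 2.01 (−0.92, adjusted p = 0.00164), that of SNAI1 1.03 against 1.84 (−0.81, adjusted p = 0.00717), that of PLAU 0.58 against 1.12 (−0.54, adjusted p = 0.000909) and that of TGFB1 0.46 against 0.94 (−0.48, adjusted p = 0.0126). PDGFRB, a PDGF receptor, rose only from 1844, 1952 and 1939 to 2179, 2277 and 2041 (0.18 against 0.86, difference −0.68, adjusted p = 0.000909), and LMCD1, a LIM domain transcriptional cofactor, from 1428, 1336 and 1341 to 1719, 1769 and 1565 (0.30 against 0.86). For the other feedback inhibitors, SMAD7 (1.32 against 1.19), SKIL (1.51 against 1.62) and LDLRAD4 (1.52 against 2.10), the difference did not pass the test, with adjusted p of 0.717, 0.691 and 0.474.

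The study's 24-gene signature was selected by its authors from these same libraries as genes induced by TGFβ1 only where the receptor was unedited, so its direction is not independent evidence. The selection also set a minimum fold change, which the counts given next do not. At an FDR under 0.05 alone, all 24 rose in wt-GR cells, 12 of them also rose in S134A-GR cells, and none fell. With a minimum of 1.5 on the log2 scale, 1 of the 24, LEFTY2, rose in S134A-GR cells. Its median log2 fold change was 1.02 against 1.78 in wt-GR cells. Among the 12 that rose in both, LBH went from 195.1, 168.3 and 139 normalized counts to 411.8, 370.6 and 346.2 (1.17, adjusted p = 1.96e-05), PIK3IP1, an inhibitor of PI3 kinase, from 541, 589 and 533.6 to 1270, 1374 and 1114 (1.17, adjusted p = 1.49e-07), MDFI from 373.3, 327.4 and 295.8 to 630.6, 716.8 and 572.3 (0.94, adjusted p = 2.69e-05) and C1orf106 from 274.3, 263.6 and 267.3 to 516.4, 548.8 and 551.5 (1.00, adjusted p = 4.63e-07). DLEU7 (1.35) and KPNA7 (1.13) rose at 49.5 normalized counts or fewer. LEFTY2, an antagonist of NODAL, was 0 in the 3 vehicle libraries and 1.9, 10.1 and 2.86 under TGFβ1. Its treated mean of 4.96 was 1.74-fold the mean floor of 3 reads a vehicle library, 2.85. The library at 10.1 carried most of that mean, and the other treated values lay at or near the floor. Of the 75-base stretches of LEFTY2, 20.1% occur in other genes, mainly LEFTY1. Other members were not called in S134A-GR cells. NLRC3 read 35.8, 36.5 and 27.6 under vehicle and 22.8, 33.4 and 30 under TGFβ1 (adjusted p = 0.622), COL8A2 43.4, 22.3 and 21.4 and 30.4, 19.2 and 22.2 (adjusted p = 0.695), and KRT16 106.5, 90.2 and 74.8 and 58, 130.6 and 90.8 (adjusted p = 0.978), each with overlapping groups. SYT8 (1.01), SYN1 (0.88), MYOZ1 (1.29), GPR183 (0.57), MATK (0.50) and NKD1 had positive log2 fold changes at 26.6 normalized counts or fewer, with adjusted p from 0.0869 to 0.508. HRAS and STK19 varied widely between replicates, HRAS from 8.91 to 115.9 under vehicle and STK19 from 5.07 to 59.7. The difference between the lines was called for 7 of the 24, JUNB, SNAI1, C1orf106, KRT16, LEFTY1, LEFTY2 and STK19.

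**Figure D5:**
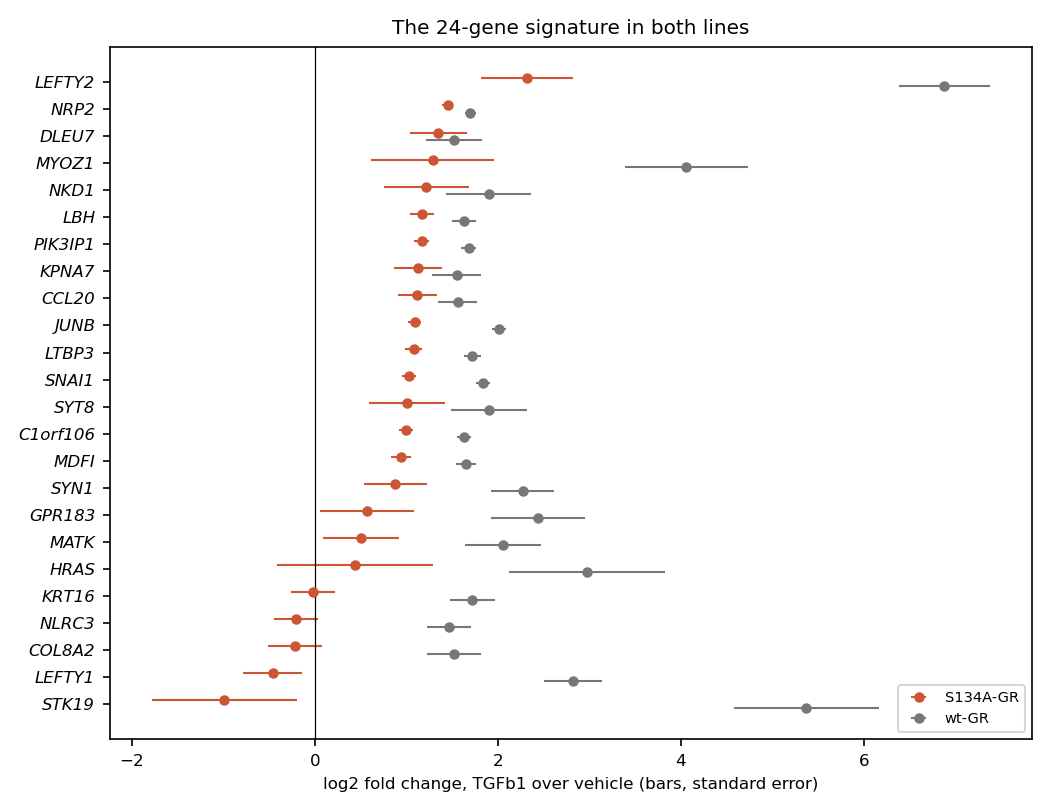
Log2 fold change (TGFβ1 over vehicle) with its standard error for the 24 genes of the signature, S134A-GR cells in orange and wt-GR cells in gray, ordered by the S134A-GR value. The S134A-GR point lies to the left of the wt-GR point in every gene, and 12 of the S134A-GR values were called as rises. The vehicle value of LEFTY2 in S134A-GR cells is 0, so its plotted value is no measure of fold.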

How the data were processed

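Paired-end reads of 75 bases came from 12 libraries. Upstream, the authors used FastQC (0.11.7 in the submitters' processing notes), Trimmomatic for trimming, HISAT2 for alignment to hg38 and featureCounts for counting. They deposited normalized counts, a signal in which every count has been divided by a library-wise DESeq2 size factor. The gene annotation and strand setting are not given in the sources used here. No mitochondrial transcript is listed. Every deposited value was a whole multiple of its library's step (100%, within 0.01), which gave back whole reads.

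Genes with at least 10 reads over the 12 libraries were tested with limma 3.58.1 in R 4.3.3, with a pseudocount of 1 before the log2, a mean for each of the 4 groups, a variance trend and Benjamini-Hochberg adjustment, so fold changes of genes with few reads are understated. An exact permutation test of 3 against 3 cannot go below 0.1. On simulated data with 200 changed genes the fit was tested first. Alternatives were edgeR 4.0.16 and DESeq2 1.42.0 on the recovered reads, other pseudocounts, filters and cutoffs, TMM scaling, a replicate block, the 6 S134A-GR libraries alone, and each library left out. Positions, promoters and shared 75-base stretches came from RefSeq (GRCh38.p14) and GENCODE v44.

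The genes, lists and comparisons were chosen with earlier results of these data known. Named were the 15 largest rises and falls among called genes whose groups did not overlap and whose log2 CPM averaged 1 or more, in each list the up to 4 called members with the largest change (all of lists up to 6), NR3C1, TGFB1, the 10 called genes with the smallest p for the difference between the lines, and the signature. A few genes that met the rule are not reported here.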

Additional observations from a re-analysis of the deposited data

Results flagged for a closer look

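These named genes are listed because their TGFβ1 response differed between the lines (limma, difference S134A-GR minus wt-GR on the log2 scale, FDR under 0.05). The groups of 3 libraries were too small for a check of single outlying libraries. A smaller rise in S134A-GR cells was measured for PMEPA1 (−0.72), COL1A1 (−1.17), ENG (−0.24), SNAI1 (−0.81), JUNB (−0.92), C1orf106 (−0.62), PDGFRB (−0.68), TGFB1 (−0.48), PLAU (−0.54), LMCD1 (−0.56) and LEFTY2 (−4.56), the last with S134A-GR vehicle values of 0. KRT16 (−1.74), LEFTY1 (−3.27) and STK19 (−6.36) rose in wt-GR cells and were not called in S134A-GR cells, and STK19 varied from 5.07 to 59.7 normalized counts among the S134A-GR vehicle libraries.

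A larger rise in S134A-GR cells was measured for NEDD9 (1.24) and TUBA4A (0.40). TNS4 (1.04) rose there and was not called in wt-GR cells, and RND3 (0.43) rose in S134A-GR and fell in wt-GR cells. Of the genes that fell, CSF1 (0.42) fell less in S134A-GR cells, and F2RL3 (−0.66), AHRR (−0.67), WNT7B (−0.37) and GRK5 (−0.59) fell more.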

How the results depend on the processing

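The counts of rises, of falls and of genes shared with wt-GR cells at an FDR under 0.05 moved by less than 1.5 times under every alternative run except the stricter FDR of 0.01, which gave 1129, 900 and 1444. At that FDR, 14 of the genes called in S134A-GR cells had a response that differed between the lines. A pseudocount of 16 left 33 large rises and 9 large falls, and a cutoff of 1 on the log2 scale gave 142 and 167. Among the genes that each method called in S134A-GR cells, DESeq2 called a difference between the lines for 151, where limma and edgeR each called 52. With 1 library left out, that number lay between 15 and 105, and was 19, 23 and 25 without wt-GR vehicle replicate 2 and wt-GR TGFβ1 replicates 2 and 3, 27, 28 and 26 without S134A-GR vehicle replicates 1, 2 and 3, and 34 without S134A-GR TGFβ1 replicate 2. The cause was not tested. Of 164 called named genes, 141 kept their call under every alternative run and 23 lost it in at least 1, where adjusted p lay between 0.0513 and 0.168. For 17 of the 23, leaving out 1 S134A-GR library was enough (adjusted p 0.052 to 0.168). The other 6, BNIP3L, COL1A2, KRT17, MAPK13, MX2 and LEFTY2, lost it with the 6 S134A-GR libraries alone or, for LEFTY2, with a pseudocount of 16. Uncalled values changed sign with a library left out, where they ranged from −0.10 to 0.00337 for SMAD2, −0.00615 to 0.07 for SMAD4, −0.40 to 0.10 for COL8A2, −0.08 to 0.00671 for NR3C1 (0.00626 without another library), −0.51 to 1.27 for HRAS (also −0.19) and −0.30 to 0.28 for KRT16 (also 0.10), and KRT16 had 0.04 with edgeR and 0.04 with DESeq2.

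Libraries with the same replicate number showed little shared deviation (r of −0.003, 0.053 and 0.128 over 13281 genes in S134A-GR cells and −0.105, 0.056 and −0.031 in wt-GR cells). The labels do not say whether libraries were paired, and a check on 3 libraries a group cannot exclude it. With a replicate block, limma gave 1716 rises, 1482 falls, 77 and 67 large ones and, among the genes called in S134A-GR cells, 41 differences between the lines. The block with edgeR, chosen after seeing the data, gave 43 differences counted likewise.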

Other observations

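Genes of the aryl hydrocarbon receptor, a sensor of xenobiotics, and of the circadian clock were looked at after the values of AHRR and BHLHE40 had been seen, so the counts below are descriptions only. Of 9 aryl hydrocarbon receptor genes, 4 fell and 2 rose in S134A-GR cells. CYP1A1, its classic target, fell from a mean of 461.6 ± 32.3 (SD, n = 3) to 194.1 ± 14.7 normalized counts (log2 fold change −1.25, adjusted p by limma 1.29e-06), CYP1B1 from 1174 ± 63.8 to 724.6 ± 36.6 (−0.70) and the receptor gene AHR from 3039 ± 95.3 to 2653 ± 89 (−0.20). TIPARP (0.21) and ARNT (0.13) rose, and NQO1 had −0.03 (adjusted p 0.547). The values in wt-GR cells were −0.91 for CYP1A1 and −0.74 for CYP1B1.

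Of 17 clock genes, 5 fell and 4 rose. The output factors DBP (−0.86), HLF (−1.15) and TEF (−0.24), which share a PAR bZIP domain, fell together with PER3 (−0.23) and BHLHE41 (−0.67), while ARNTL, which encodes BMAL1 (0.44), CRY1 (0.33), RORA (0.28) and BHLHE40 (1.35) rose. HLF read 137.9 ± 16.6 normalized counts under vehicle and 61.9 ± 8.36 under TGFβ1 (SD, n = 3). PER1 and PER2 were not called, with log2 fold changes of −0.12 and 0.20.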
